A study of Mus musculus with 22 samples.

Results

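The comparison described here is of Wnt5a mutant and control mouse tracheas at E11.5, taken number by number. Of the 22 samples of the series, 9 are E11.5 tracheas, and 8 of these entered the comparison. The columns of the deposited table carry the numbers 7, 13, 17 and 18 in both a mutant and a control library, and the number was fitted as a block, so that each mutant library was read against the control library of its own number. The meaning of the number is not given. A further control library, number 16, has no mutant of its number and served only as a check. Mutants were Dermo1Cre; Wnt5a f/f embryos and controls were Wnt5a f/f embryos, so both groups carry the floxed allele and only the mutants carry the recombinase. Each sample is labelled as 5 whole tracheas, epithelium and mesenchyme together, dissociated with an enzyme before the RNA was extracted and amplified with the SMART-Seq v4 kit. The labels do not say which embryos share a litter or a day.

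Wnt5a encodes a secreted ligand of the noncanonical Wnt pathways, which act through receptors such as Ror2 and the planar cell polarity proteins on cell shape, polarity and movement rather than through β-catenin. In the developing trachea the mesenchyme around the epithelial tube forms the cartilage rings at the front and sides and the trachealis, a smooth muscle, at the back. Dermo1Cre is active in this mesenchyme and is inserted at the Twist2 (Dermo1) gene, so embryos with Cre have lost one working copy of Twist2. The question of the comparison is which genes the E11.5 trachea expresses differently when its mesenchyme lacks Wnt5a.

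Total counts of the 8 libraries lay between 14566843 and 20034349, and a floor of 3 counts corresponds to 0.15 to 0.206 CPM (counts scaled to the library total). Control 16 had 6880660 counts and a floor of 0.436 CPM. The floors cover counting error only, since the kit adds no molecular identifiers. Nothing in the labels says whether the samples of a group came from separate litters. The p-values of the blocked fit set the mean difference within a number against its variation between numbers, in these samples only. The fit also draws the spread of each gene toward that of genes of similar level. This shared spread had a median weight of 6.21 degrees of freedom, beside 3 residual ones of the gene itself. Markers of the labelled tissue were detected in every library. Nkx2-1, the factor that marks respiratory epithelium, was at 2.55 to 14.2 CPM in the 8 libraries and 1.14 CPM in control 16, and Epcam, which marks any epithelium, was at 22.6 to 114 CPM and 20.1 CPM. The libraries also differed in embryo sex. Xist, the RNA of the inactive X chromosome, was at 1.00, 0.167 and 0.514 CPM in mutants 7, 13 and 17 and at 361 CPM in mutant 18, and it lay between 37.2 and 215 CPM in the 4 controls. Ddx3y, a Y-linked gene, was at 0.0584 CPM in mutant 18 and 0.505 CPM in control 7 and at 22.5 to 81.3 CPM in the 6 other libraries. Thus 3 of 4 mutant libraries had almost no female signal, the other had no male signal, and the sexes were not matched within a number. Whether embryos were pooled by sex is not given, and a pool of 1 sex and a library from fewer embryos than labelled cannot be told apart here. The part of sex in the results below was not tested apart from 1 fit with a Y-linked covariate, whose counts are given with the other settings.

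The number accounted for more of the variation than the mutant or control label did. Over the 14265 genes tested, 55.1% of the sum of squares of log2 CPM lay between numbers, 13.47% between mutant and control and 31.4% in neither, where the shares of the 7 degrees of freedom are 42.9%, 14.3% and 42.9%. In the same fit, 33 genes (0.231%) differed between numbers at an adjusted p under 0.05. The genes that did so were led by the list of immediate early and dissociation genes, with 10 of the 13 tested. The list holds immediate early genes, which cells switch on within minutes of stress or dissociation, and the heat shock genes Hspa1a, Hspa1b and Hspa8. Fos measured 609 CPM in control 7 and 995 CPM in mutant 7 and between 1.83 and 38.4 CPM in the 6 other libraries. Egr1 was at 527 and 751 CPM in the pair of number 7 and between 3.00 and 21.4 CPM elsewhere. Both libraries of number 7 therefore stood apart in the same way, and 92.2% of the sum of squares of this list lay between numbers. The embryonic globin list was divided similarly, with 88.4% between numbers and 0.3% between labels.

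**Figure D1:**
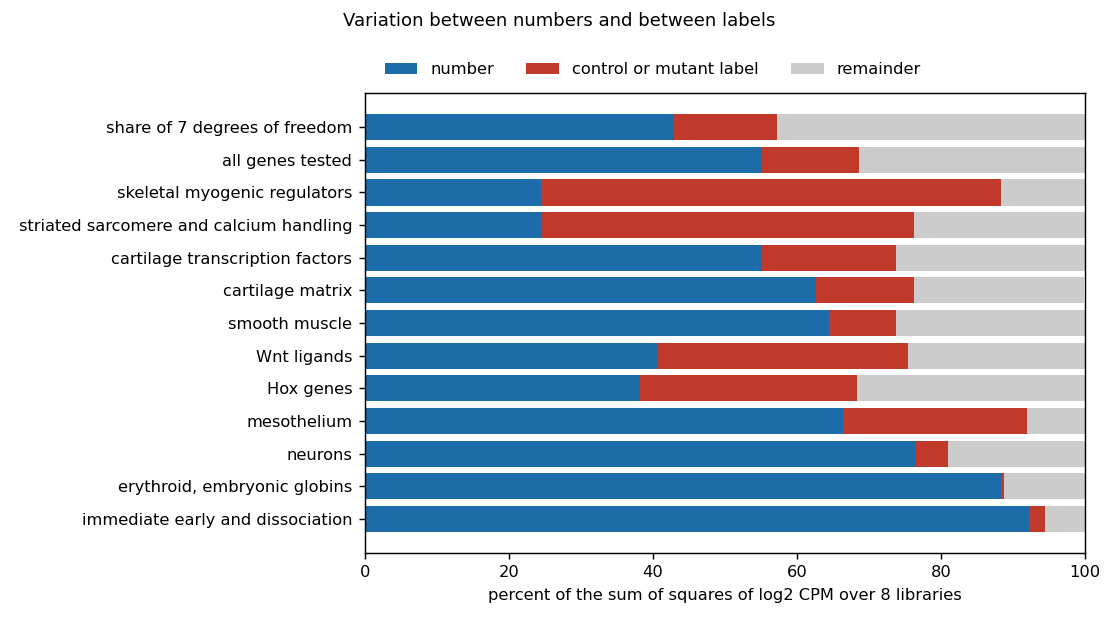
Percent of the sum of squares of log2 CPM over the 8 libraries that lies between numbers (blue), between control and mutant labels (red) and in neither (grey), for all 14265 genes tested and for gene lists, below the share of the 7 degrees of freedom. The label takes 63.9% in the skeletal myogenic regulators and 51.7% in the sarcomere genes, against 13.47% over all genes and 2.3% in the immediate early and dissociation genes.

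Libraries of 1 number deviated from their group means together, but not equally. Across genes, the correlation of these deviations was 0.577 for number 7, 0.243 for 13, 0.198 for 17 and 0.093 for 18, and it ran from -0.375 to 0.142 between libraries of different numbers. With the block, the log2 fold changes had a median standard error of 0.205 against 0.245 without it, and it was smaller in 11147 genes (78.1%), although the blocked fit leaves 3 residual degrees of freedom rather than 6. At the study's thresholds, an unadjusted p under 0.05 and a fold change over 1.5, the blocked fit called 425 genes (2.98%) and the unblocked fit of the same libraries 332. They shared 275 genes, which is 64.7% of the first list and 82.8% of the second. The balance of the calls also moved, from 223 higher and 109 lower without the block to 245 higher (1.72%) and 180 lower (1.26%) with it. Xist was among the 180 lower genes.

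Of all genes tested, 3 (0.021%) passed the adjustment, all of them higher in the libraries labelled mutant: Myog, Myod1 and Ctse. Myog and Myod1 are the transcription factors that commit cells to skeletal muscle and drive its differentiation, and Ctse encodes the aspartic protease cathepsin E. No gene passed it as lower, while 657 genes (4.61%) had an unadjusted p under 0.05 in either direction. The calls depended on single numbers. Leaving out both libraries of number 7, 13, 17 or 18 left 0, 1, 13 and 1 genes past the adjustment. Myog kept its call without 13 (adjusted p = 0.0151) and without 17 (0.0103) and lost it without 7 (0.0746) and without 18 (0.132), while Myod1 and Ctse kept theirs without 17 (0.0269 and 0.0108) and lost them without 7 (0.178 and 0.0746), 13 (0.183 for both) and 18 (0.142 for both). Their log2 fold changes moved little, from 2.16 to 2.52 for Myog, 1.74 to 1.92 for Myod1 and 3.37 to 4.06 for Ctse. Differences had the same sign in all 4 numbers for 1860 genes (13%), 1004 of them higher (7.04%) and 856 lower (6%) in the mutants. Random signs in 4 pairs give about this share, so the same sign in all 4 numbers does not by itself set a gene apart. Every mutant lay above every control of the fit in 195 genes (1.37%) and below every one in 111 (0.778%).

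Before these genes, the labels were checked on Wnt5a itself. Wnt5a measured 160, 90.1, 91.4 and 86.6 CPM in controls 7, 13, 17 and 18 and 126, 79.3, 48.7 and 89.8 CPM in the mutants of the same numbers. It was lower in 3 of 4 numbers and the groups overlapped, with control 16 at 65.2 CPM. The log2 fold change was -0.34 (SE 0.18, adjusted p = 0.96, quasi-likelihood F test in edgeR, adjusted by Benjamini-Hochberg, as for every adjusted p here), and the labels could not be told apart by its level. Reads are not resolved by exon in the table. Twist2, the gene that carries the Cre insertion, gave a second check. Its level was 45.0, 19.03, 26.5 and 20.4 CPM in the controls and 23.6, 6.22, 12.96 and 9.75 CPM in the mutants. Each mutant lay below the control of its number, by a log2 difference between -0.93 and -1.60, although the groups overlapped because both libraries of number 7 were high. The fitted log2 fold change was -1.15 (SE 0.19, unadjusted p = 0.000168, adjusted p = 0.149). Control 16 was at 7.19 CPM, below the other controls and inside the mutant range, so Twist2 did not place this library with the controls.

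**Figure D2:**
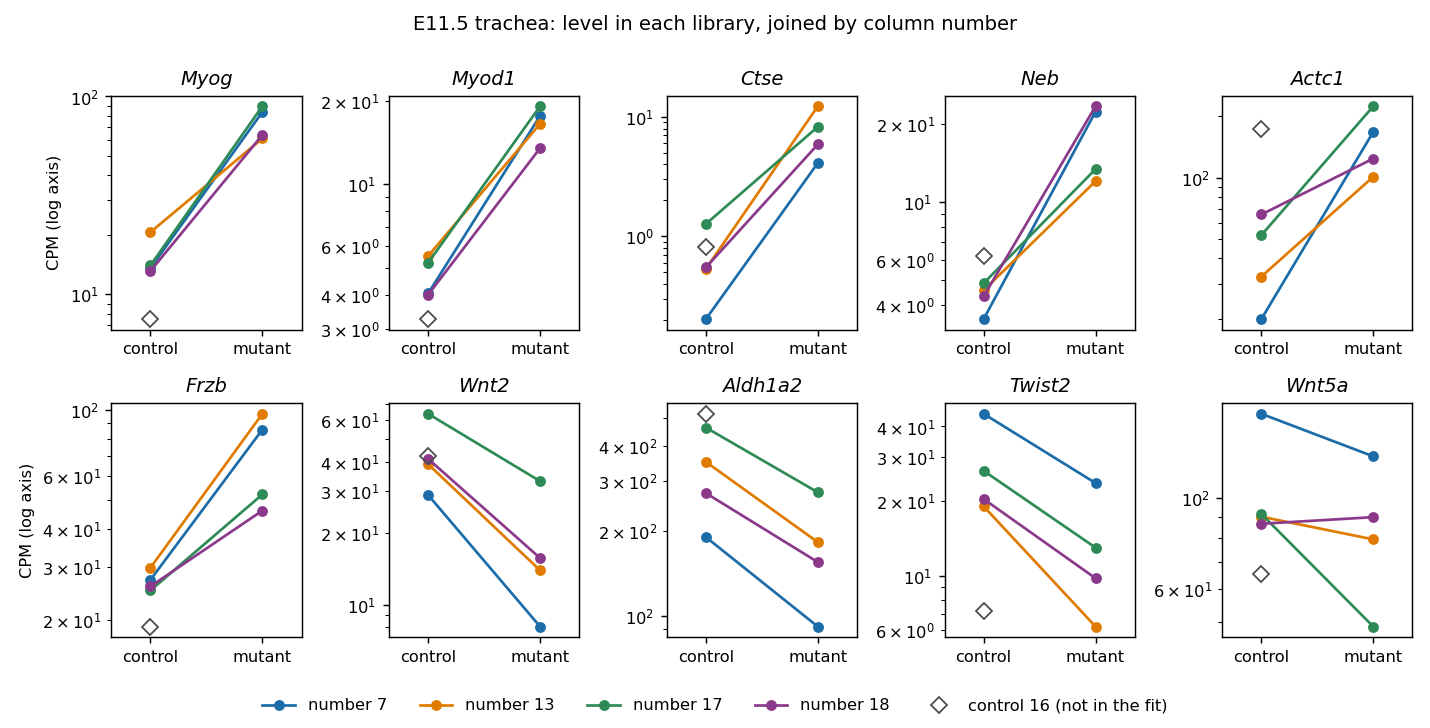
CPM (log axes) of 10 genes in the 4 control and 4 mutant libraries, with lines joining libraries of 1 number and an open diamond for control 16. Myog, Myod1, Ctse, Neb, Actc1 and Frzb are higher in every mutant than in any of the 4 joined controls, while Wnt2, Aldh1a2 and Twist2 are lower within every number although the groups overlap.

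The clearest group of genes was that of skeletal muscle. Myog measured 13.6, 20.6, 14.0 and 13.1 CPM in the controls and 83.5, 61.3, 89.3 and 63.9 CPM in the mutants. It rose by 2.29 on the log2 scale (SE 0.21, adjusted p = 0.0242), with no overlap of the groups and control 16 lowest of all at 7.51 CPM. Myod1 was at 4.04, 5.51, 5.21 and 4.00 CPM in the controls and 17.6, 16.5, 19.1 and 13.48 CPM in the mutants. Its rise of 1.83 (SE 0.21, adjusted p = 0.0460) was again seen in all 4 numbers, and control 16 was at 3.27 CPM. These were also the only genes that passed the adjustment without the block, whereas Ctse passed it only with the block in these 8 libraries.

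Of 24 skeletal myogenic regulators listed, 20 were tested and 16 were higher. Of the 20, 11 met the study's thresholds as higher and 0 as lower, and their median log2 fold change was 0.77 against -0.02 over all genes. Of all 14265 genes 6578 were higher, and 1.72% met the thresholds as higher and 1.26% as lower. These shares are the background for this list and for every list below. Apart from Myog and Myod1, none of the 20 regulators passed the adjustment. Among the members that act late, in fusion and at the neuromuscular junction, Mymk and Chrng differed by more than Myog, and Mymx, Musk and Dok7 by less. Mymk (myomaker), a membrane protein needed for myoblast fusion, measured 0.505, 1.90, 1.13 and 0.986 CPM in the controls and 7.33, 5.94, 6.51 and 6.95 CPM in the mutants, a log2 fold change of 2.66 (SE 0.40, adjusted p = 0.0904). Chrng, the fetal γ subunit of the acetylcholine receptor, had a log2 fold change of 2.68 (SE 0.50, adjusted p = 0.262), and was at 0.0593 to 1.15 CPM in the controls, partly under the floor, and 1.83 to 4.59 CPM in the mutants. The fusion partner Mymx (1.83, SE 0.47), the receptor kinase Musk (1.498, SE 0.47) and its adaptor Dok7 (0.99, SE 0.42) were each higher in every mutant than in every control of the fit. Among factors that act beside or upstream of Myod1, Myf5 differed by 0.53 (SE 0.43) and Pax3, a marker of muscle progenitors, was lower in 4 of 4 numbers at -0.66 (SE 0.39, unadjusted p = 0.118). Pax7, Myf6 and Lbx1 were among the members that did not reach the filter.

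The genes of the contractile apparatus behaved in the same manner. Of 25 striated sarcomere and calcium handling genes tested, 21 were higher and 13 met the study's thresholds, all 13 as higher, and their median was 0.95. None of them passed the adjustment. Neb (nebulin), a ruler protein of the thin filament, measured 3.54, 4.57, 4.86 and 4.33 CPM in the controls and 22.4, 12.1, 13.4 and 23.5 CPM in the mutants (1.99, SE 0.28, adjusted p = 0.0751). Actc1, the actin of heart and embryonic skeletal muscle, measured 20.1, 32.5, 52.0 and 65.7 CPM in the controls and 168, 101, 225 and 124 CPM in the mutants (1.92, SE 0.30, adjusted p = 0.122). The groups did not overlap for either gene. Differences of 2.71 (SE 0.53) for the myosin light chain Myl1, 2.57 (SE 0.42) for the fast troponin Tnnc2 and 1.78 (SE 0.32) for the skeletal actin Acta1 were also without overlap. Mybph, a myosin-binding protein outside this list, measured 0.505 to 3.14 CPM in the controls and 10.8 to 15.99 CPM in the mutants (3.26, SE 0.45, adjusted p = 0.0751). Not every sarcomere gene followed: Des (desmin) was lower in every mutant than in every control of the fit, 33.5 to 38.2 against 39.4 to 46.9 CPM (-0.25, SE 0.15, unadjusted p = 0.123).

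**Figure D3:**
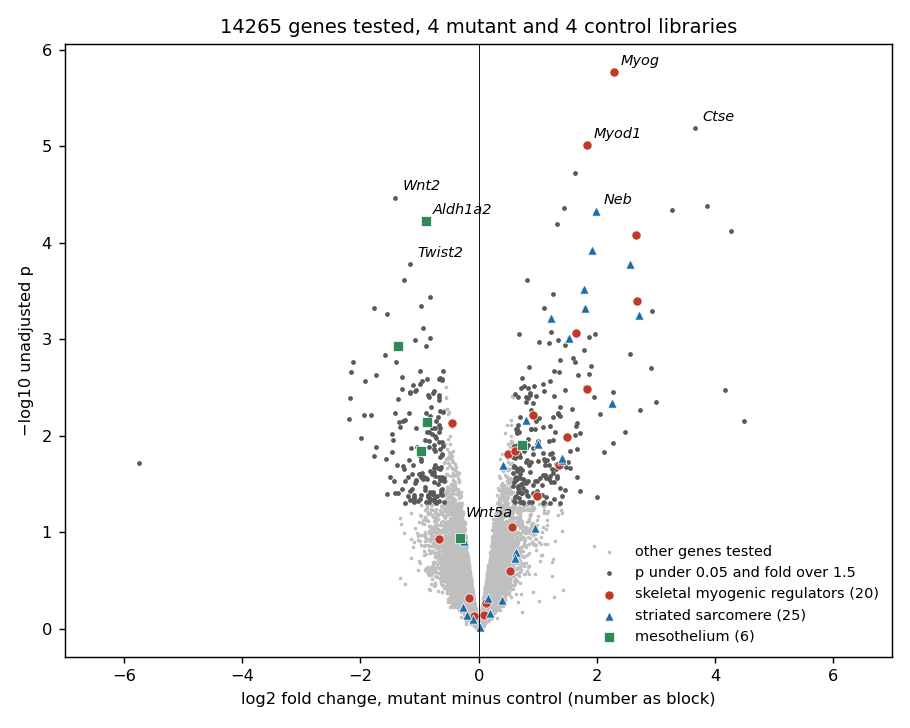
Log2 fold change (mutant minus control, number as block) against −log10 of the unadjusted p for 14265 genes. Skeletal myogenic regulators (red circles, 20 genes) and sarcomere genes (blue triangles, 25 genes) lie mostly to the right, 24 of them past the study's thresholds, and 4 of the 6 mesothelial markers (green squares) lie past them on the left.

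The sarcomere genes are shared with the heart, so heart markers were read beside them. The summed level of the 12 heart markers listed was 51.6 to 129 CPM in the controls. In the mutants it was an overlapping 38.2 to 139 CPM, and in control 16 it was 320 CPM. Of the 8 markers tested 5 were higher, 3 were lower and 1 met the study's thresholds in each direction. Myh6, an atrial myosin, was at 0.556, 0.474, 7.96 and 28.6 CPM in the controls and 1.64, 3.00, 15.0 and 1.17 CPM in the mutants. In control 16, Actc1 was at 173 CPM and Acta1 at 19.6 CPM, as high as in the mutants, while Myog, Myod1, Neb and Mybph were at 7.51, 3.27, 6.21 and 0.817 CPM, near the controls or below them. Control 16 was on the control side of the midpoint for 15 of 20 myogenic regulators and 14 of 25 sarcomere genes, against 49.1% of all genes. In bulk tissue a change in the number of cells of a type and a change in RNA per cell cannot be told apart, for muscle and for every tissue below.

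The 6 libraries of sorted E13.5 control cells gave a readout that took no part in the comparison. They are 2 libraries of each sorted population, 1 from each of 2 dates in the column names, and the dates differed widely. Cells sorted for the γSMAeGFP smooth muscle reporter exceeded both other populations in all 25 sarcomere genes and 13 of 20 myogenic regulators on the earlier date, where 32.9% of all genes did, and in 18 and 6 of them on the later date, where 32.7% did. Myog was at 468.8 and 34.5 CPM in these cells on the earlier and the later date, and at no more than 6.57 CPM in epithelium and chondroblasts. Actc1 was at 1854 and 607 CPM, and at no more than 8.13 CPM in the other populations. Myod1 was at 114.4 CPM on the earlier date and only 1.69 CPM on the later one.

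The promoters of a few members that moved together are shown as context, as the 250 bases before the start of the gene on the strand of the gene (RefSeq, GRCm38.p6). Capitals mark E-boxes (CANNTG), the core to which MyoD and myogenin bind, or, in Actc1, a CArG box, the motif of serum response factor. Myog lies at chr1:134289754-134290003 (plus strand), Mybph at chr1:134193198-134193447 (plus), Chrng at chr1:87205561-87205810 (plus) and Actc1 at chr2:114052876-114053125 (minus).
Myog: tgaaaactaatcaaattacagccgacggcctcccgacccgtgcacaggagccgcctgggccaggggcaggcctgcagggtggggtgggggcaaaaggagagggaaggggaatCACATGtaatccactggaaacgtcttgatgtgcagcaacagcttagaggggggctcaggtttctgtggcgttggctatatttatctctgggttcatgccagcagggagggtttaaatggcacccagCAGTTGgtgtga
Mybph: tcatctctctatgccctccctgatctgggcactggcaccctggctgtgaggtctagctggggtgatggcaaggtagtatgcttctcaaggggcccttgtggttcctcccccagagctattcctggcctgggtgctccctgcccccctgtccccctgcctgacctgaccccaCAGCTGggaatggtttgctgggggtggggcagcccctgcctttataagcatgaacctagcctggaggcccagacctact
Chrng: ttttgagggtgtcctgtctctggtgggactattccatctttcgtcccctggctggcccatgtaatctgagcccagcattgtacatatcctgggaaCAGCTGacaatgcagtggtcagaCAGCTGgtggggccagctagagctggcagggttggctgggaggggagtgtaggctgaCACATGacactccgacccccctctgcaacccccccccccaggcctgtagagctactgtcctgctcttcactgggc
Actc1: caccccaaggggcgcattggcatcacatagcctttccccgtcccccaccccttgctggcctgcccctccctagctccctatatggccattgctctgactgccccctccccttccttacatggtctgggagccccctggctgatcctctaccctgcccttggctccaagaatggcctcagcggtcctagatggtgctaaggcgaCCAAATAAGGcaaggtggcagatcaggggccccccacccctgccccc
Myog holds 2 E-boxes, Mybph 1 and Chrng 3, of which 2 in Chrng and the one in Mybph read CAGCTG. Both strands were searched, and every CAGCTG is also an E-box of the general form. It was found in 34.2% of the 38 promoters matched to the 45 tested muscle genes, in 12.2% of 14338 promoters matched to the genes tested and in 13% of all 32851. The general E-box was found in 73.7%, 58% and 66.2%, and the CArG box in 5.26%, 1.27% and 1.47%. These are matches of letters in a short window, and binding was not measured.

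Ctse, the third gene past the adjustment, was scarce in the controls. It measured 0.202, 0.534, 1.27 and 0.548 CPM in controls 7, 13, 17 and 18 and 4.11, 12.3, 8.28 and 5.90 CPM in the mutants. It rose by 3.66 on the log2 scale (SE 0.40, adjusted p = 0.0460) with no overlap, and control 16 was at 0.817 CPM. The sorted E13.5 libraries gave no stable order: Ctse was at 74.3 and 0.844 CPM in chondroblasts on the earlier and the later date, at 0 and 6.45 CPM in muscle and at 0 in epithelium on both. Cdkn1a, the cell cycle inhibitor p21, was among the genes nearest to the threshold: 6.47, 4.45, 6.69 and 4.16 CPM in the controls against 16.9, 15.4, 20.9 and 13.54 CPM in the mutants (1.63, SE 0.20, adjusted p = 0.0668), with control 16 at 5.55 CPM. Of 14 proliferation genes 13 had a negative log2 fold change, with a median of -0.18 and none at the study's thresholds.

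The genes with the largest differences were not equally shared by the numbers. Sst, the hormone somatostatin, measured 0.101, 0.593, 1.62 and 0.0548 CPM in the controls and 3.32, 18.1, 10.9 and 0.175 CPM in the mutants (3.86, SE 0.53, adjusted p = 0.0751). Ctxn3 was at 0, 0.237, 0.282 and 0 CPM in the controls and 1.32, 3.50, 4.57 and 0.117 CPM in the mutants. For both genes mutant 18 was at or under the floor of 0.186 CPM, so the difference rests on numbers 7, 13 and 17. Pax9, a factor of the pharyngeal and foregut endoderm, went the same way, with 8.49, 10.8 and 13.1 CPM in mutants 7, 13 and 17 and 0.175 CPM in mutant 18, against 0.606 to 4.44 CPM in the controls (2.13, SE 0.71, adjusted p = 0.848). Mutants 7, 13 and 17 were also the mutants with almost no Xist, and mutant 18 the one with almost no Y-linked RNA. The part of sex in this split was not tested apart from the fit with a Y-linked covariate.

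**Figure D4:**
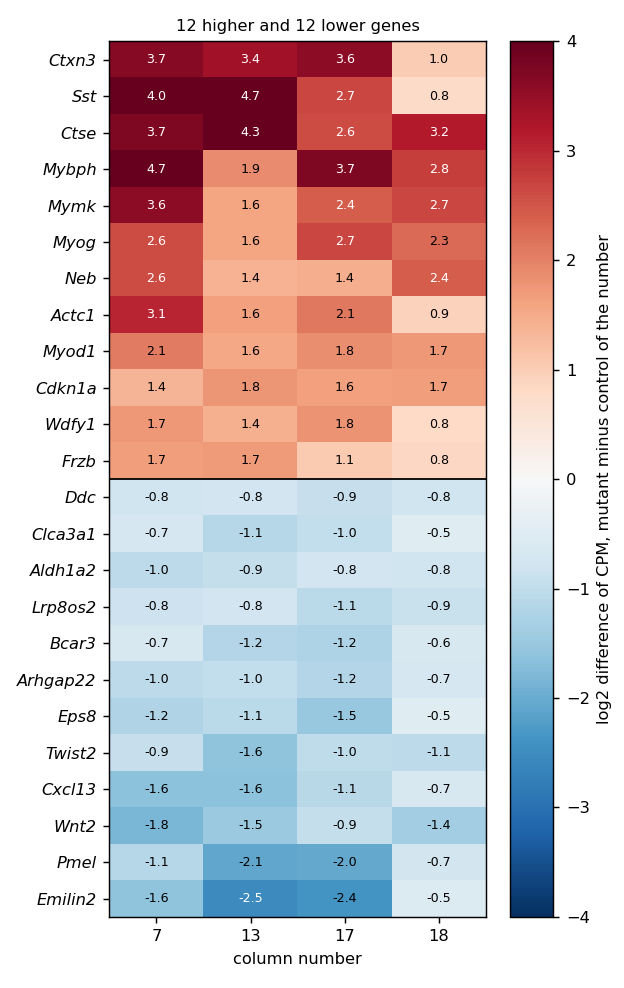
Log2 difference of CPM between the mutant and the control library of each number, for the 12 higher and 12 lower genes chosen by the rule; colors saturate at 4. Ctxn3 and Sst differ by 1.0 and 0.8 in number 18 and by 2.7 to 4.7 in the others, while Myod1 and Cdkn1a differ by 1.4 to 2.1 in every number.

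Pax9 is 1 of 7 tested markers of the esophagus and foregut, of which 6 were higher and 4 met the study's thresholds, with a median of 1.07. Pax9 and Barx1, both among the 4, are counted again with the cartilage transcription factors below. Sox2, another of the 4, is counted again with the airway epithelium markers. The summed level of the 10 markers listed was 166, 57.7, 69.9 and 77.3 CPM in controls 7, 13, 17 and 18. In the mutants it was 199, 131, 182.5 and 87.6 CPM, so that it was farthest apart in numbers 13 and 17. Isl1 made up most of this sum, at 48.1 to 146.5 CPM in the controls and 80.1 to 168 CPM in the mutants. Sox2, which marks the esophageal and dorsal foregut epithelium and later the airway epithelium, was 3.69 to 6.57 CPM in the mutants and 2.55 to 2.88 CPM in the controls (0.74, SE 0.31, unadjusted p = 0.0387), without overlap. Of 18 airway epithelium markers 16 were higher and 5 met the thresholds, with a median of 0.30. The 2 lower ones were the respiratory marker Nkx2-1 (-0.28, SE 0.37) and Wnt7b (-0.29, SE 0.25), each lower in 3 of 4 numbers. The summed level of the 18 markers was 492 to 1080 CPM in the mutants, highest in mutant 17, and 427 to 625 CPM in the controls. Mutant 17 also held the most neuronal RNA, with the 16 neuronal markers listed summing to 1484 CPM. The sum was 268 to 352 CPM in the 3 other mutants and 248 to 440 CPM in the controls. The part of these tissues in the differences was not tested.

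On the lower side, no gene passed the adjustment. The smallest p belonged to Wnt2, a ligand of the lung and foregut mesenchyme that signals through β-catenin. It measured 28.9, 39.1, 63.8 and 41.1 CPM in the controls and 8.07, 13.9, 33.1 and 15.7 CPM in the mutants, a log2 fold change of -1.41 (SE 0.19, adjusted p = 0.0751). Aldh1a2, the enzyme that makes retinoic acid in mesoderm and mesothelium, measured 190, 350, 463 and 272 CPM in the controls and 91.9, 182, 274 and 155 CPM in the mutants (-0.89, SE 0.13, adjusted p = 0.0828). Both genes were lowest in number 7 and highest in number 17 in either group, so that the groups overlapped, but every mutant lay below its own control. Without number 17 both passed the adjustment, at adjusted p = 0.0228 for Wnt2 and 0.0303 for Aldh1a2. The remaining genes of the 12 were Twist2, Cxcl13, Ddc, Arhgap22, Emilin2, Pmel, Bcar3, Clca3a1, Eps8 and Lrp8os2, with log2 fold changes between -0.82 and -1.77 and adjusted p-values between 0.149 and 0.368.

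Aldh1a2 is also 1 of 6 mesothelial markers, and of these 5 were lower and 4 met the study's thresholds as lower, with a median of -0.88. The mesothelium is the cell sheet that covers the lungs and other organs. The other 3 were Lrrn4 (-1.37, SE 0.30), the uroplakin Upk3b (-0.88, SE 0.26) and the transcription factor Wt1 (-0.98, SE 0.32), each lower in 4 of 4 numbers. Krt19, which epithelia also express and which is also counted with the airway epithelium markers above, was higher (0.73, SE 0.24). The summed level of the 7 markers listed, the untested Msln included, was 260, 533, 780 and 359 CPM in the controls. It was 134, 331, 412 and 220 CPM in the mutants, and 829 CPM in control 16. Aldh1a2 makes up much of this sum, and the part of the amount of mesothelium in each library was not tested.

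Among 8 Wnt ligands tested 7 were lower, 2 met the study's thresholds and the median was -0.47. Wnt11, another noncanonical ligand, measured 84.4, 45.8, 55.1 and 54.8 CPM in the controls and 46.9, 14.0, 43.8 and 41.0 CPM in the mutants (-0.82, SE 0.23, adjusted p = 0.623), lower in 4 of 4 numbers. Of 12 secreted Wnt inhibitors, 8 were higher, 4 met the thresholds as higher and 1, Sfrp5, met them as lower (-1.09, SE 0.46, adjusted p = 0.96), at 5.54 CPM in mutant 17 and 0.475 to 1.05 CPM in the 3 other mutants against 1.42 to 5.85 CPM in the controls. Frzb, which binds Wnt proteins outside the cell, measured 27.1, 29.8, 25.0 and 25.8 CPM in the controls and 85.8, 96.9, 52.2 and 46.1 CPM in the mutants (1.32, SE 0.19, adjusted p = 0.0828), without overlap. Dkk1, a blocker of the co-receptor Lrp6 and itself a β-catenin target, had a log2 fold change of 1.01 (SE 0.32, adjusted p = 0.791). The receptors and polarity proteins through which Wnt5a acts gave no common direction. Of 30 tested 14 were higher and 16 lower, the median was -0.02 and only Ptk7, a co-receptor, met the thresholds, at -0.86 (SE 0.36). Mutant 17 decided this value, with 22.3 CPM against 78.5 to 205 CPM in the 7 other libraries, and without number 17 it was -0.35. The receptor Ror2 was at 19.9 to 51.0 CPM in the controls and 13.54 to 34.4 CPM in the mutants (-0.51, SE 0.21, adjusted p = 0.96). Of 18 β-catenin targets 8 were higher and 10 lower, with a median of -0.05, and 1 met the thresholds in each direction, Dkk1 as higher and Nkd2 as lower. Nkd2, an inhibitor of the pathway that β-catenin also induces, measured 25.6, 37.0, 32.9 and 30.0 CPM in the controls and 14.9, 18.9, 21.7 and 23.8 CPM in the mutants (-0.67, SE 0.18, adjusted p = 0.510), without overlap. Axin2 differed by -0.08 (SE 0.32; 0.09 without number 17) and Lef1 by -0.34 (SE 0.20), both with overlapping groups.

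Cartilage genes differed unevenly. The cartilage collagen Col2a1 is reported by the study as upregulated in these mutants. Here it measured 321, 146, 144 and 113 CPM in the controls and 416, 244, 56.4 and 177 CPM in the mutants. It was higher in 3 of 4 numbers and lower in number 17, and its log2 fold change of 0.13 was smaller than the SE of 0.31. It was 0.59 without number 17 and changed sign without number 13 or 18 (-0.09 and -0.06) and when the largest entry of the symbol replaced the sum (-0.13). Sox9, the master regulator of cartilage, differed by -0.24 (SE 0.16), or by 0.08 with no block and control 16 added, and it was 1 of the 33 genes that differed between numbers (adjusted p = 0.0397), at 247 and 256 CPM in number 7. Col9a1 was higher in 4 of 4 numbers, 132, 112, 86.5 and 110 CPM in the controls against 218, 197, 91.0 and 161 CPM in the mutants (0.54, SE 0.16, unadjusted p = 0.00764, adjusted p = 0.675), but under a fold of 1.5. Of 13 cartilage matrix genes 9 were higher and 1, Col9a3, met the thresholds, with a median of 0.17. The largest difference of this list was that of Epyc, a small matrix proteoglycan (1.40, SE 0.65, unadjusted p = 0.0580), which was higher in numbers 7, 13 and 17 and lower in number 18. Acan did not reach the filter.

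Of 18 transcription factors of cartilage and its mesenchyme 12 were higher and 3 met the thresholds, Pax9, Osr2 and Barx1, with a median of 0.16. Barx1 was at 0.808 to 1.20 CPM in the controls and 2.16, 2.78, 2.74 and 1.17 CPM in mutants 7, 13, 17 and 18 (1.15, SE 0.40, adjusted p = 0.891). Osr2 rested largely on number 13, with 11.9 CPM in the mutant against 2.02 CPM in its control, and 1.89 to 4.06 CPM in the 3 other mutants (1.26, SE 0.43, adjusted p = 0.885). Without number 13 the difference was 0.79. The joint and cartilage growth factor Gdf5 measured 0.909, 11.3, 1.83 and 9.80 CPM in the controls and 11.3, 31.9, 7.31 and 9.63 CPM in the mutants. It was higher in numbers 7, 13 and 17 and level in number 18 (1.67, SE 0.49, adjusted p = 0.663). Hoxc5 was divided in the same way, with 13.7, 31.0 and 27.0 CPM in mutants 7, 13 and 17 and 6.54 CPM in mutant 18, against 3.38 to 11.9 CPM in the controls (1.37, SE 0.37, adjusted p = 0.592). Among 24 genes of BMP and TGF-β signaling Tgfbi, a matrix protein that TGF-β induces, had the smallest p, with 167, 118, 85.4 and 126 CPM in the controls and 261, 253, 160 and 196 CPM in the mutants (0.82, SE 0.14, adjusted p = 0.193).

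Other genes that the study names for this comparison went in different directions. The T-box factor Tbx18, which the study reports as upregulated in these mutants, was lower here. It measured 17.98, 28.75, 40.6 and 18.9 CPM in the controls and 9.44, 23.4, 17.1 and 14.1 CPM in the mutants (-0.72, SE 0.21, adjusted p = 0.648). It was lower in 4 of 4 numbers and met the study's thresholds. Gata4, a factor of the heart and of foregut mesoderm, met them too, at -1.28 (SE 0.37, adjusted p = 0.648), with 23.2, 11.98, 31.6 and 13.9 CPM in the controls and 10.1, 3.89, 5.83 and 15.2 CPM in the mutants, lower in numbers 7, 13 and 17 but not in 18. The growth factor Igf1 was higher in 4 of 4 numbers by nearly the same amount, with log2 differences of 0.34 to 0.51 (0.44, SE 0.14, adjusted p = 0.717), although the groups overlapped. Bmp3 differed by -0.44 (SE 0.33), and by -0.02 without number 13.

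Of 15 matrix and adhesion genes that accompany condensation 8 were higher and 7 lower, with a median of 0.05, and 1 was higher and 4 were lower in 4 of 4 numbers. The ephrin receptor Epha4 was the one higher in all of them (0.40, SE 0.14, unadjusted p = 0.0221), and the adhesion molecule Ncam1 was higher in 3 of 4 (0.39, SE 0.16, unadjusted p = 0.0331). Tnc (tenascin C), a matrix glycoprotein, measured 174, 126, 171 and 126 CPM in the controls and 108, 71.8, 29.2 and 77.7 CPM in the mutants (-1.16, SE 0.30, adjusted p = 0.510), without overlap. Control 16 was at 72.5 CPM, within the mutant range. The cadherin Cdh11 was also lower in every mutant than in the 4 controls of the fit, 196 to 338 against 368 to 405 CPM (-0.58, SE 0.16, adjusted p = 0.611). For Cdh11 too, control 16 lay within the mutant range, at 291 CPM. N-cadherin, Cdh2, was lower in 4 of 4 numbers (-0.27, SE 0.14). Smooth muscle genes did not share the difference of the striated genes: of 15 tested 7 were higher and 8 lower, with a median of -0.07. Acta2 was at 132 to 399 CPM in the controls and 192 to 382 CPM in the mutants (0.40, SE 0.24, adjusted p = 0.96).

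**Figure D5:**
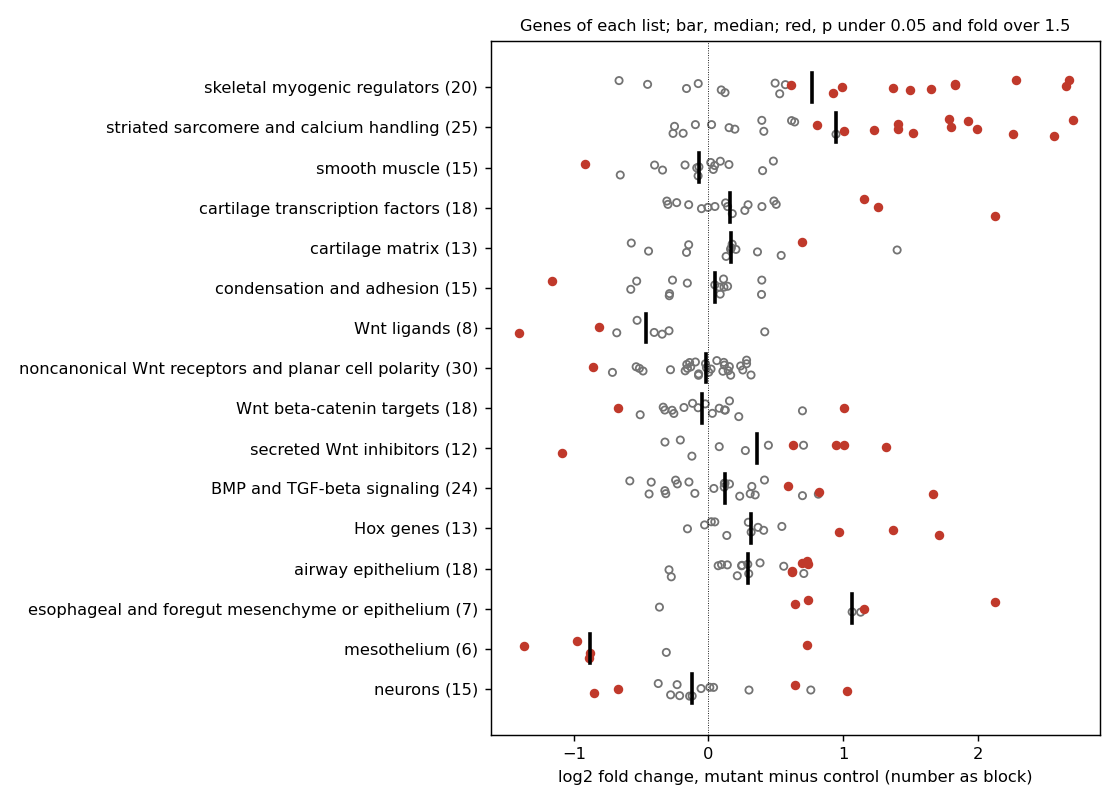
Log2 fold change (mutant minus control, number as block) of each tested gene of 16 lists, with a bar at the median and filled red points for genes at the study's thresholds; the number of genes is in parentheses. Medians are 0.77 and 0.95 for the 2 striated muscle lists, 1.07 for esophagus and foregut, -0.88 for mesothelium, and between -0.47 and 0.36 for the others.

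The library that had no part in the fit placed the calls unevenly. Control 16 lay on the control side of the midpoint between the group means for 136 of the 245 higher calls (55.5%) and 132 of the 180 lower calls (73.3%), beside 49.1% of all genes. It lay there for all 3 genes past the adjustment, for 9 of the 12 higher and 10 of the 12 lower genes of the rule. The exceptions were Actc1, Ctxn3 and Wdfy1 among the higher and Twist2 and Lrp8os2 among the lower. This library was the shallowest, at 6880660 counts, and had the lowest median correlation with the others, 0.9243 against 0.9396 to 0.9676.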

How the data were processed

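RNA-seq of whole E11.5 tracheas was analysed from 1 table in which the authors deposited expected counts, estimated per entry, without normalization and with replicates kept apart. The submitters' processing notes name mm10, Partek and limma, and the paper names DESeq2 for its differential genes; the roles of Partek and limma, the aligner and the counter are not given in the sources used here. Columns were assigned by the label and number in their names, and 7 of 22 matched no group used here. They carry no replicate number of the labels.

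Entries of each of 26202 symbols were summed and rounded, which merges transcripts and cannot trace reads shared by near-identical genes. Genes with at least 1 CPM in over 50% of a group were fitted (TMM, edgeR 4.0.16 quasi-likelihood, R 4.3.3, number plus label, 2-sided, Benjamini-Hochberg). The SE is the log2 fold change divided by the square root of F. CPM are TMM-scaled, and log2 CPM used a prior count of 2. The closest pair of libraries of a group had a chi-square per gene of 26.9 or more, so none was counted as a duplicate. On 13948 genes simulated for this design, 190 of 200 genes changed 4-fold were recovered with 4 false calls, and 171 with 0 without the block. Each simulated gene had the spread typical of its level and not its own, so these counts do not give the recovery in the data. limma 3.58.1 and DESeq2 1.42.0 served as alternatives.

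The genes, lists and numbers compared were chosen with earlier results of these data known. Genes named are Wnt5a, Twist2, those the study names for this comparison, 12 per direction by adjusted p and then by smallest p with the same sign in 4 of 4 numbers, and up to 4 per list by smallest p; predicted models were not named. Other members of lists were named after their values were seen.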

Additional observations from a re-analysis of the deposited data

Results flagged for a closer look

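Groups of libraries were the 4 mutants or the 5 controls (control 16 included) for each named gene and each list of other cell types or of RNA quality. Of 210 such groups, 27 (12.9%) held a library far from the rest of its group. Independent, normally distributed values would give about 1 in 20. The groups share libraries and genes and the CPM were not logged, so that rate is only nominal here and the excess over it was not tested. A library was taken as far when its gap to the nearest other library exceeded Dixon's critical share of the group's range.

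Control 7 stood apart in 10 of them. It was the highest control for Col2a1 (320.7 CPM, next 145.6), Foxf2 (22.83, next 5.914), Jun (931.4, next 291.0), Notum (15.11, next 5.311), Ptch1 (106.1, next 31.20) and Wnt5a (160.3, next 91.43), and for the summed CPM of the esophageal and foregut list (166.0, next 77.32), the lung bud list (1176, next 748.1) and the immediate early list (7513, next 4376). It was the lowest for Hoxb5 (6.012 CPM, next 14.09). Mutant 7 stood apart for Jun (1024 CPM, next 206.5), the lung bud list (1052, next 691.9), Fgf18 (0.5274, next 1.028) and Chrdl1 (20.73, next 30.30). For Jun and the lung bud list the pair of number 7 was therefore far from its group in the same direction.

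Mutant 17 was far from the other mutants in Col9a3 (10.28 CPM, next 49.02), Sfrp5 (5.540, next 1.051) and the summed CPM of neurons (1484, next 352.3) and heart muscle (139.4, next 54.13). Mutant 18 was so in Cdh2 (129.4 CPM, next 97.78) and Dkk1 (7.063, next 11.02), and mutant 13 in Gdf5 (31.92, next 11.34) and Fgf11 (11.77, next 5.370).

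Control 16 was the highest control for Acta1 (19.60 CPM, next 6.352), Ctxn3 (1.470, next 0.2818), Fgf18 (3.431, next 1.601) and the heart muscle list (319.9, next 129.3). Control 17 was the highest for Pax9 (4.438 CPM, next 1.067).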

How the results depend on the processing

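The log2 fold changes of Myog, Myod1, Ctse and Twist2 kept their direction in every setting in which they were tested, but their calls did not. Beside 3 genes at an adjusted p under 0.05, the fit gave 7 with limma voom and the number as a random replicate block over 9 libraries (consensus correlation 0.284), 1 with limma voom and a fixed replicate block, 74 with DESeq2 and the block, 1 with DESeq2's size factors in edgeR, 0 with library size only, 103 with no filter, 1 with at least 10 counts in every library and 0 with the largest entry per symbol in place of the sum. The check of the pairing gave correlations of 0.577, 0.243, 0.198 and 0.093 within numbers 7, 13, 17 and 18, so that it was under 0.1 for number 18. Without a replicate block 2 genes passed in the 8 libraries and 2 in the 9 libraries with control 16, and the genes lower at the study's thresholds numbered 109 and 371 in place of 180. With no filter 668 genes, 330 of them lower, met these thresholds in place of 425. The share of higher genes among them was 57.6% with the block, 67.2% without it, 32.1% with control 16 added and 66% with library size only. With a covariate of Y-linked RNA beside the replicate block, added after seeing the data, 3 genes passed (1 higher, Myog, and 2 lower), and 20 genes differed between numbers in place of 33. That last count was 18 with library size only, 1298 with no filter and 9 with the largest entry per symbol. Twist2 passed with DESeq2 (-1.159, adjusted p = 6.94e-05) and with no filter (-1.148, 0.00127), among adjusted p-values from 6.94e-05 to 1 over its alternatives. The median of the cartilage transcription factors was 0.37 with the largest entry per symbol. In that setting Col2a1 was at -0.134, and with no block and control 16 Sox9 was at 0.078 and Jun at 0.054.

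Leaving out both libraries of 1 number in turn gave 0 to 13 genes past the adjustment, 322 to 765 at the study's thresholds (186 to 385 higher and 124 to 424 lower), and 2 to 359 that differed between numbers. The highest counts were without number 17 or 18 and the lowest without 7 or 13. The medians were 0.68 to 1.03 for the skeletal myogenic regulators, 0.09 to 0.32 for the cartilage transcription factors and -0.14 to 0.01 for condensation and adhesion, log2 fold changes -0.163 to 0.088 for Axin2, -0.09 to 0.592 for Col2a1 and -0.205 to 0.357 for Notum, and the share of calls with control 16 on the control side 49.7% to 69.8%. Over all alternatives and named genes, 1209 log2 fold changes kept their direction and their side of the threshold, 71 passed it newly, 23 no longer passed it and 8 changed sign. The causes were not tested. Depth limits genes near the floor of 3 counts (0.15 to 0.206 CPM) and those under 1 CPM in both groups, which were not tested.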
